A study of Rattus norvegicus with 9 samples.

Results

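Apoptosis inhibitors, BCL2 family members and initiator caspases were followed across 9 libraries of rat endometrial messenger RNA. The members were named genes: Birc2, Birc3 and Xiap, which encode inhibitor of apoptosis proteins, Bcl2, Bcl2l1, Mcl1 and Bcl2l11 of the BCL2 family, and the caspase genes Casp8 and Casp9. Rows named for 8 of the 9 were found among 22250 gene rows, and Mcl1 was not analysed here. All 8 had enough counts to be tested, among 14232 tested genes. The libraries came from uteri of Sprague-Dawley rats aged 10 weeks, mated after drug treatment, in 3 groups of 3. NER rats had saline before mating and olive oil by gavage afterwards. LER rats were gavaged with hydroxyurea for 10 days, each daily dose being 450 mg/kg, and injected subcutaneously with adrenaline on days 4 to 10, each dose being 0.3 mg/kg. Once mated, they were given olive oil. LER+LIG rats had the same drugs as LER, and from gestation day 0.5 a daily gavage of 40 mg/kg LIG, which the series title gives as ligustilide. The labels do not state that libraries are from separate animals, so the spread that p-values measure is that of these libraries and may be technical.

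Apoptosis runs through a mitochondrial and a receptor route that both end in the activation of caspases. In the mitochondrial route BH3-only proteins such as BIM, the product of Bcl2l11, neutralise the guardians BCL2, BCL-xL and MCL1. BAX and BAK then open the outer mitochondrial membrane, and released cytochrome c activates caspase-9 on a platform formed by APAF1. In the receptor route caspase-8 is activated at ligand-bound death receptors. XIAP blocks caspases directly, and cIAP1 and cIAP2, the products of Birc2 and Birc3, are ubiquitin ligases that decide whether tumour necrosis factor receptors signal to NF-kB or to caspase-8. In the rodent uterus, luminal epithelial cells around the implanting embryo are removed in part by apoptosis.

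Total counts per library lay between 13241537 and 15354085. All 8 epithelial and all 8 stromal marker genes had counts in every library, and the 6 smooth muscle markers summed to between 9148 and 20408 CPM, the reads of a gene relative to a TMM-scaled library size. Several libraries stood apart in ways that touch the results below. LER+LIG replicate 1 favoured short genes: its median log2 distance from the LER mean was 0.43 for genes of up to 1646 bases and -0.38 for those of at least 4575 bases, against -0.13 to 0.15 for these length classes in the other 8 libraries. LER+LIG replicate 2 had 8998 CPM over the stromal markers, where the others had 27727 to 44444 CPM. The collagen genes Col1a1 and Col3a1 made most of that difference, at 2072.8 and 1840.4 CPM, while Pdgfrb was highest of the 9 there, at 358.0 CPM, and Dcn, Vim and Pdgfra lay within the range of the other libraries. NER replicate 3 had 3623 CPM over the epithelial markers and LER+LIG replicates 2 and 3 had 2334 and 1975 CPM, where the remaining 6 had 496.6 to 996.6 CPM. The smooth muscle sum was lowest in LER+LIG replicates 2 and 3, at 9148 and 10508 CPM, where the others had 14286 to 20408 CPM. Of its genes, Myh11 lay within the range of the other libraries in both, at 4243.7 and 3051.9 CPM. In bulk tissue, fewer cells of a type and less RNA per cell cannot be told apart.

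No member was called between any pair of groups by the quasi-likelihood test of edgeR, its p-values being adjusted by Benjamini-Hochberg over all tested genes. The clearest differences were between LER+LIG and LER, where Birc3 and Bcl2l11 were higher and Bcl2l1 was lower, all at adjusted p = 0.36. At an unadjusted p under 0.05 these were 3 of 8 members, against 12.5% of all genes. With DESeq2, Birc3 alone passed among the members (adjusted p = 0.02), against 2.47% of all genes, while edgeR called 0% in this comparison. LER+LIG was the higher group in 5 of 8 members, with a median log2 fold change of 0.12 where all genes had 0.07, or in 4 of 8 under the other scalings, where Xiap changed sign. Between LER and NER edgeR called 0% of all genes and DESeq2 0.0141%, and 0 members had an unadjusted p under 0.05, against 0.871% of all genes. Between LER+LIG and NER the same 2 tools called 0% and 0.163%, with 2 members, Birc3 and Bcl2l11, at an unadjusted p under 0.05, against 5.45% of all genes. The comparisons share libraries, so their fold changes are not independent of each other.

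**Figure D1:**
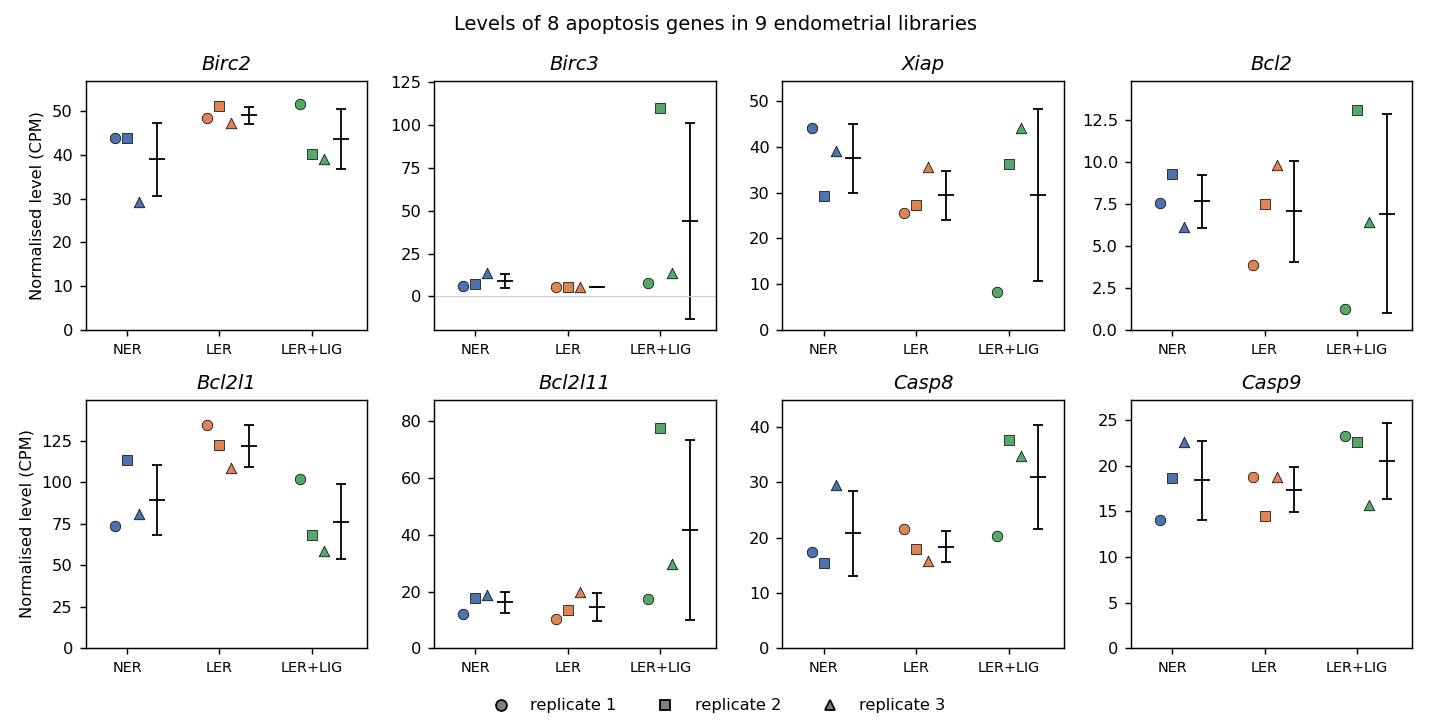
Level of each gene in CPM (vertical axis, from 0 except for Birc3, whose error bar passes below 0) by group, with 1 point per library, replicates shown by shape, and bars for the mean ± SD of 3 libraries. Birc3 and Bcl2l11 stand at 110.3 and 77.7 CPM in LER+LIG replicate 2, and Xiap and Bcl2 at 8.31 and 1.25 CPM in LER+LIG replicate 1.

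Birc3, which encodes cIAP2, varied most of the 8 genes, with an SD of 1.37 on the log2 scale over the 9 libraries. It stood at 5.64, 5.76 and 5.62 CPM in LER replicates 1 to 3, at 6.01, 7.41 and 13.8 CPM in NER, and at 7.98, 110.3 and 13.9 CPM in LER+LIG. The 3 LER libraries were the lowest of the 9 and lay close together, and LER+LIG replicate 2 stood far above all others, with 1620 reads where the rest had 79 to 191. LER+LIG replicate 3 and NER replicate 3 were at nearly the same level. Against LER, LER+LIG had a log2 fold change of 2.96 ± 0.89 (SE; unadjusted p = 0.0089), with no overlap between the groups. Groups did not overlap in 2 of 8 members here, Birc3 higher and Bcl2l1 lower, against 20.4% of all genes in either direction, 10.4% higher and 10.0% lower. Without LER+LIG replicate 2 the log2 fold change was 0.93. LER against NER gave -0.68 ± 0.84 (SE), again without overlap, and -0.24 without NER replicate 3. Groups did not overlap in 2 of 8 members in that comparison as well, Birc2 higher and Birc3 lower, against 7.15% of all genes in either direction, 3.78% higher and 3.37% lower. LER+LIG against NER gave 2.28 ± 0.87 (SE), which became 0.25 without LER+LIG replicate 2, and in this comparison the groups overlapped in all 8 members, where 8.27% of all genes did not, 4.17% being higher and 4.10% lower.

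Markers of other cell types are given beside Birc3. Neutrophil markers, 9 genes with a row, summed to 24.8 to 78.2 CPM in LER, 43.2 to 250.2 CPM in NER and 120.8 to 686.9 CPM in LER+LIG, with 7 of 7 tested members higher in LER+LIG than in LER and the granule genes Mpo and Elane at 0 in some libraries. The lipocalin gene Lcn2 alone made up 490.3 of the 686.9 CPM in LER+LIG replicate 2 and 136.3 of the 250.2 CPM in NER replicate 3. In the latter library S100a8 and S100a9, which encode the calprotectin subunits, were at 1.81 and 6.66 CPM, below both other NER libraries. Macrophage and dendritic cell markers, also 9 genes, summed to 715.8 to 1039 CPM in LER, 695.2 to 3800 CPM in NER and 1164 to 2588 CPM in LER+LIG. Of these genes 8 of 9 were higher in LER+LIG than in LER, and none was at 0. Lyz2 alone made up 2768.2 of the 3800 CPM in NER replicate 3. The macrophage and epithelial sums were highest in NER replicate 3, and the neutrophil sum in LER+LIG replicate 2, the library with most Birc3. The 3 libraries with most Birc3 had the 3 highest sums for neutrophil, macrophage and epithelial markers alike. The part of these cells in the level of Birc3 was not tested.

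Birc2, which encodes cIAP1 and lies next to Birc3 on the same rat chromosome with no annotated gene between them in the RefSeq table of GRCr8, did not share this pattern. It was the steadiest member, with a log2 SD of 0.25. Its level was 43.8, 43.8 and 29.3 CPM in NER, 48.4, 51.2 and 47.3 CPM in LER, and 51.5, 40.2 and 39.1 CPM in LER+LIG. All LER libraries lay above all NER libraries, and NER replicate 3, the NER library with most Birc3, was the lowest of the 9. The log2 fold change was 0.33 ± 0.22 for LER against NER, -0.17 ± 0.22 for LER+LIG against LER and 0.16 ± 0.22 for LER+LIG against NER (SE), at adjusted p of 1.00, 0.78 and 0.94 by edgeR. Without NER replicate 3 the first of these was 0.16. The counting rule for reads that match both of these related genes is not given, so some may have been shared.

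The ratio of Birc3 to Birc2 inside a library depends little on scaling between libraries. It lay at a log2 of -2.99, -3.05 and -2.97 in LER, at -2.77, -2.48 and -1.05 in NER, and at -2.62, 1.44 and -1.46 in LER+LIG. All LER libraries had the lowest ratios, and LER+LIG replicate 2 was the only library with a value above 0. The group means were -3.00 ± 0.04, -2.10 ± 0.92 and -0.88 ± 2.09 in that order (SD, n = 3 each).

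Xiap, whose product binds and blocks caspases, stood at 44.1, 29.3 and 39.0 CPM in NER, at 25.5, 27.2 and 35.5 CPM in LER, and at 8.31, 36.2 and 44.1 CPM in LER+LIG. The groups overlapped, and LER+LIG replicate 1 was lowest, at a log2 distance of -1.79 from the LER mean. Xiap has a gene length of 6724 bases in the deposited table, and genes of its length class had a median of -0.38 in that library. Birc6, the giant member of the family, was also lowest there, at 12.8 CPM against 49.5 to 110.4 CPM elsewhere. For LER+LIG against LER the log2 fold change of Xiap was 0.01 ± 0.50 (SE), lying between -0.40 and 0.42 with 1 library left out, and its sign turned with DESeq2 size factors at -0.02 and with upper-quartile scaling at -0.07. LER against NER gave -0.35 ± 0.50 and LER+LIG against NER -0.34 ± 0.50 (SE).

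Bcl2, the founding guardian gene, varied next most after Birc3, with a log2 SD of 0.95. It was read at 7.53, 9.25 and 6.15 CPM in NER, 3.87, 7.50 and 9.82 CPM in LER, and 1.25, 13.1 and 6.42 CPM in LER+LIG. Both the lowest and the highest of the 9 values were in LER+LIG, in replicates 1 and 2, which had 15 and 192 reads. The log2 fold changes were -0.12 ± 0.69 for LER against NER, -0.03 ± 0.69 for LER+LIG against LER and -0.14 ± 0.69 for LER+LIG against NER (SE). The second ranged from -0.90 without LER+LIG replicate 2 to 0.44 without LER+LIG replicate 1. In LER+LIG replicate 1 Bcl2 was at a log2 distance of -2.28 from the LER mean. Genes of its length class, from 1647 to 2725 bases, had a median of 0.11 there.

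Bcl2l1 encodes BCL-xL and, by splicing, the pro-apoptotic BCL-xS, which gene counts do not separate. It stood at 134.4, 122.3 and 108.7 CPM in LER, 73.7, 113.6 and 81.0 CPM in NER, and 101.9, 68.3 and 58.7 CPM in LER+LIG. Every LER+LIG library lay below every LER library, and 2 of the 3 NER libraries lay below LER as well. LER+LIG against LER gave a log2 fold change of -0.68 ± 0.26 (SE; unadjusted p = 0.029), and stayed negative in all 9 fits that dropped a library, from -0.97 to -0.52. With each library's gene length trend removed it was -0.45. The gene was higher in LER than in NER by 0.45 ± 0.26, from 0.33 to 0.66 with 1 library left out, and LER+LIG against NER gave -0.23 ± 0.26 (SE).

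Bcl2l11, which encodes the BH3-only protein BIM, had a fold change of the opposite sign between LER+LIG and LER and was not called. It stood at 12.1, 17.9 and 18.8 CPM in NER, 10.5, 13.4 and 19.8 CPM in LER, and 17.5, 77.7 and 29.8 CPM in LER+LIG. LER+LIG replicates 2 and 3 lay above the other 7 libraries, and LER+LIG replicate 1 lay within the range of LER. The log2 fold change was 1.52 ± 0.52 for LER+LIG against LER (SE; unadjusted p = 0.017), and 0.68 without LER+LIG replicate 2. It was 1.36 ± 0.52 for LER+LIG against NER (SE; unadjusted p = 0.027), or 0.52 without that library, and -0.16 ± 0.51 for LER against NER. DESeq2 did not call the gene between LER+LIG and LER, with adjusted p = 0.11.

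Promoter windows are shown for Bcl2l11 and Bcl2l1, whose fold changes between LER+LIG and LER had opposite signs though neither was called, with 250 bases before and 50 after an annotated start, from RefSeq on GRCr8. The Bcl2l11 window lies at chr3:135819792-135820091 on the plus strand. Capitals mark the FOXO motif GTAAACA, found 204 bases before the start, and the Sp1 motif GGGCGG, found 188 and 51 bases before it.
Bcl2l11: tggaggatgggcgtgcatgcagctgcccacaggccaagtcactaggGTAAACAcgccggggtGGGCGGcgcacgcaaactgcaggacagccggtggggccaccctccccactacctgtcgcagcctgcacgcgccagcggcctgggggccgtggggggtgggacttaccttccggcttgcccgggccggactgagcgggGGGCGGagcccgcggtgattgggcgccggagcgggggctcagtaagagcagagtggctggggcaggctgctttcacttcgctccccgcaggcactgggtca
The Bcl2l1 gene has 4 annotated windows, and the one at chr3:161763336-161763635 on the minus strand is shown and was chosen after all 4 were searched. Another of the 4 overlaps it and holds the same matches, a further one held an Sp1 match alone, and the remaining one held none of the motifs. In the window shown, capitals mark 2 matches to the GAS motif TTCNNNGAA, the element read by STAT factors, starting 94 and 13 bases before the start.
Bcl2l1: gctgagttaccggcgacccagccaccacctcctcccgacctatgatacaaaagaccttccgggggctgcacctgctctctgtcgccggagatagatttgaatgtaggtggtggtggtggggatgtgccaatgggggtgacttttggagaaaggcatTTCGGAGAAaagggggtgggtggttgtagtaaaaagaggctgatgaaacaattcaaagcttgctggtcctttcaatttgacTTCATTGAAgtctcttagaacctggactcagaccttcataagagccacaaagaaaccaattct
Motifs were searched on both strands, also for the AP-1 motif TGANTCA and the kappa B motif, which matched neither of these windows. Among 33469 windows of the same length, 3.78% held the FOXO motif, 33.1% the Sp1 motif, 8.87% the GAS motif, 7.33% the AP-1 motif and 5.02% the kappa B motif. A match describes these letters and shows no binding.

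The ratio of Bcl2l11 to Bcl2l1, added after the data were seen, brings the pair together. Its log2 was -2.56, -2.63 and -2.08 in NER, -3.61, -3.14 and -2.42 in LER, and -2.51, 0.18 and -0.96 in LER+LIG. LER+LIG replicates 2 and 3 were highest, and replicate 1 lay within the range of the other groups. The group means were -2.42 ± 0.30 in NER, -3.06 ± 0.60 in LER and -1.09 ± 1.35 in LER+LIG (SD, n = 3 each).

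Bcl2 was also set against Bax, the gene of a pore-forming effector. The log2 ratio was -1.72, -2.08 and -2.52 in NER, -3.64, -2.17 and -1.55 in LER, and -4.61, -0.84 and -1.49 in LER+LIG. The groups overlapped, and the spread inside LER+LIG, with an SD of 2.01, exceeded the distance between the group means of -2.11, -2.45 and -2.31. For Bcl2l1 to Bcl2 the group means were 3.46 ± 0.22, 4.10 ± 0.78 and 3.77 ± 1.86 in NER, LER and LER+LIG (SD, n = 3 each), with overlap.

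**Figure D2:**
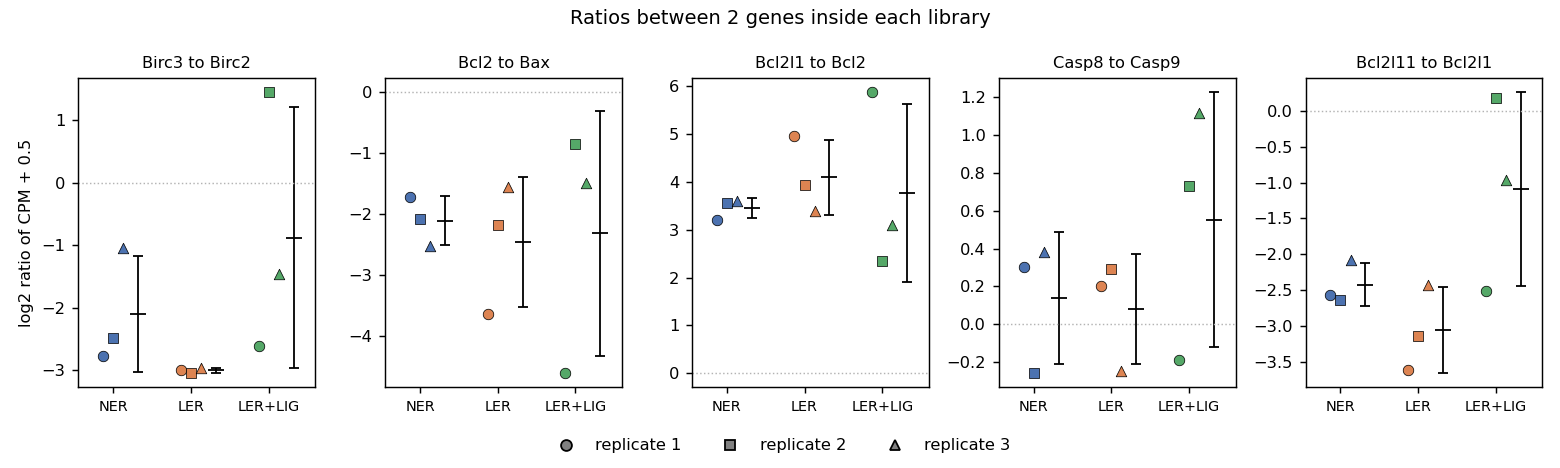
log2 ratio of 2 genes inside each library (vertical axis, 0.5 CPM added to both), by group, with 1 point per library and bars for the mean ± SD of 3 libraries. Birc3 to Birc2 lies at -3.05 to -2.97 in LER and at 1.44 in LER+LIG replicate 2, and Bcl2 to Bax spans -4.61 to -0.84 in LER+LIG alone.

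Casp8, the initiator caspase gene of the receptor route, was at 17.4, 15.4 and 29.5 CPM in NER, 21.5, 17.9 and 15.8 CPM in LER, and 20.3, 37.7 and 34.8 CPM in LER+LIG. NER replicate 3 and LER+LIG replicates 2 and 3 lay above the other 6 libraries, which did not exceed 21.5 CPM. This split was not particular to Casp8. Over all tested genes the first principal component, with 44.4% of the variance, had these 3 at 71.3 to 84.5. The other 6 were at -68.1 to -28.7 on it. The same 3 libraries had the highest summed epithelial markers, of which 6 of 8 were higher in LER+LIG than in LER and none was at 0. Epcam and Cldn4 were exceptions, as given above. These 3 libraries also had the highest neutrophil sums and the highest macrophage sums, the latter at 3800, 1915 and 2588 CPM. Lyz2 alone made up 2768.2, 1129.2 and 1806.2 CPM of the macrophage sums. Cd163, at 5.72, 5.99 and 4.49 CPM, was below every LER library in all 3, and C1qa, at 45.8 CPM, in LER+LIG replicate 3. The part of these cells in the level of Casp8 was not tested. The log2 fold change was 0.75 ± 0.34 for LER+LIG against LER (SE; unadjusted p = 0.052, adjusted p = 0.40 by edgeR), from 0.56 to 0.95 with 1 library left out. For LER against NER it was -0.18 ± 0.33, and 0.16 without NER replicate 3, and LER+LIG against NER gave 0.57 ± 0.34 (SE).

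Casp9, which encodes the caspase of the apoptosome, varied little, with a log2 SD of 0.27. Its levels were 14, 18.6 and 22.6 CPM in NER, 18.7, 14.5 and 18.8 CPM in LER, and 23.2, 22.6 and 15.7 CPM in LER+LIG. The 3 groups overlapped throughout, with log2 fold changes of -0.08 ± 0.28, 0.24 ± 0.28 and 0.16 ± 0.28 (SE) for LER against NER, LER+LIG against LER and LER+LIG against NER. The log2 ratio of Casp8 to Casp9 averaged 0.14 ± 0.35 in NER, 0.08 ± 0.29 in LER and 0.55 ± 0.67 in LER+LIG (SD, n = 3 each), with overlap.

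**Figure D3:**
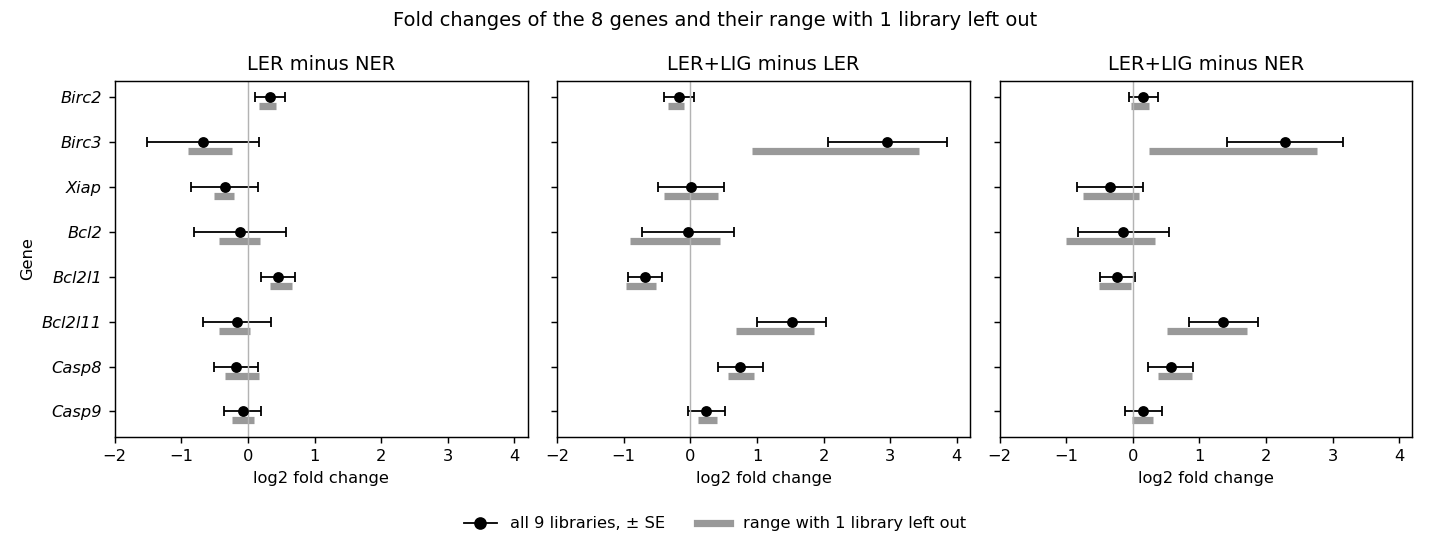
log2 fold change of each gene (horizontal axis) in 3 comparisons, with points for the fit of all 9 libraries ± SE and grey bars for the range when each library was left out in turn. Bcl2l1 stays below 0 between LER+LIG and LER, from -0.97 to -0.52, while Birc3 spans 0.93 to 3.43.

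Levels of different genes were compared per length, with the deposited FPKM. In NER the order was Birc2 at 12.0 ± 2.94 FPKM, Bcl2l1 at 10.3 ± 2.69, Casp8 at 5.89 ± 1.94, Xiap at 5.57 ± 1.09, Bcl2 at 3.49 ± 0.81, Casp9 at 3.20 ± 0.66, Bcl2l11 at 2.75 ± 0.59 and Birc3 at 2.16 ± 0.91 FPKM (SD, n = 3). In these values Birc2 did not differ from Bcl2l1 beyond the spread, nor Casp8 from Xiap, nor neighbours among the last 4. LER had the same order, from 15.7 ± 0.77 FPKM for Birc2 to 1.42 ± 0.03 FPKM for Birc3. LER+LIG had Birc3 in place 2, at 10.8 ± 14.4 FPKM with 1.66, 27.3 and 3.26 FPKM in its libraries, and Bcl2 last at 3.15 ± 2.83 FPKM.

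The genes most like a member in pattern were found by Pearson's r of log2 CPM over the 9 libraries, among 12784 genes, for the most variable member of each class. These are descriptions over libraries that share groups and the depth and length features above, and carry no p-value. For Birc3 they were Gpnmb, a glycoprotein gene of macrophages and other cells (r = 0.990), AABR07005821.1 (r = 0.988), Hsd3b7 (r = 0.983) and Btbd19 (r = 0.982), all highest in LER+LIG replicate 2. Without that library r was 0.927, 0.938, 0.872 and 0.866. For Bcl2 they were Herc1, Ptpdc1, Prdm2 and Plcxd3, with r from 0.968 to 0.978 and the lowest level in LER+LIG replicate 1. For Casp8 they were Lypd6b, Mycn, the pattern receptor gene Tlr2 and Neto2, with r from 0.969 to 0.976. The level of Tlr2 was 46.7 CPM for NER replicate 3, 80.3 and 59.3 CPM for LER+LIG replicates 2 and 3, and 12.2 to 20.9 CPM for the other 6. The first principal component of all tested genes splits the libraries in the same way.

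Another 66 apoptosis genes on 11 lists had a row, and 62 were tested. Birc7, Bcl2l10, Pidd1 and Tnf had too few counts. In LER+LIG against LER 44 were higher and 18 lower, their median on the log2 scale being 0.28, where 54.9% of all genes were higher and the median was 0.07. By edgeR 0 were called, with 11 at an unadjusted p under 0.05, where 12.5% of all genes were, and DESeq2 called 1, Casp1, where it called 2.47% of all genes. The count of higher genes was 38 once LER+LIG replicate 2 was dropped, and 50 when replicate 3 was. In LER against NER 16 were higher and 46 lower, by a median of -0.15, where 47.1% of all genes were higher and the median was -0.02. Called were 0 by edgeR and by DESeq2, against 0% and 0.0141% of all genes. At an unadjusted p under 0.05 by edgeR there were 0, against 0.871% of all genes. Without NER replicate 3 the count of higher apoptosis genes became 33, with a median of 0.01. The named genes below follow a rule of smallest p within a list.

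BH3-only genes other than Bcl2l11 were higher in LER+LIG than in LER in 6 of 7, with a median log2 fold change of 0.60, and 0 were called. Without LER+LIG replicate 2 the median was 0.35, with 7 of 7 higher. Bnip3l, a mitophagy receptor gene, had 0.58 ± 0.22, Bid, which links caspase-8 to mitochondria, 0.74 ± 0.31, and Pmaip1, the gene of NOXA, 1.23 ± 0.51 (SE). Pmaip1 was at 43.6 CPM in LER+LIG replicate 2, at 11.1 and 14.3 CPM in its other libraries and at 8.49 to 11.1 CPM in LER, and its fold change was 0.35 without that replicate. The BCL2 effector genes Bax, Bak1 and Bok were lower in 3 of 3, by a median of -0.26. Among other guardians Bcl2l2, the gene of BCL-w, stood at 52.0, 42.7 and 41.4 CPM in LER+LIG libraries, below the 70.1, 63.9 and 64.7 CPM of LER, with -0.55 ± 0.18 (SE; adjusted p = 0.36 by edgeR). Bcl2a1, a guardian gene of blood cells and an NF-kB target, stood at 9.14, 16.9 and 15.5 CPM against 7.13, 4.35 and 6.76 CPM. Bcl2l2 thus lay on the side of Bcl2l1, and Bcl2a1 on the other.

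Inflammatory caspase and pyroptosis genes were higher in LER+LIG than in LER in 6 of 6, by a median of 0.27, in 5 of 6 with DESeq2 size factors or upper-quartile scaling, and in 4 of 6 without LER+LIG replicate 2. Casp1, which encodes the caspase that matures interleukin-1 beta, had 68.0, 32.3 and 64.8 CPM under LIG where LER had 23.8, 19.6 and 22.3 CPM. All its LER+LIG libraries lay above LER, with 1.33 ± 0.30 (SE; adjusted p = 0.33 by edgeR and 0.0096 by DESeq2), from 1.12 to 1.58 with 1 library left out. Unlike Birc3, it was lowest in replicate 2 among the LER+LIG libraries. Pycard, the inflammasome adaptor gene, had 1.42 ± 0.46 (SE). The 3 necroptosis genes Mlkl, Zbp1 and Ripk3 were all higher, by a median of 1.49, or 0.67 without LER+LIG replicate 3, and Zbp1 reached its highest level, 27.9 CPM, in NER replicate 3, against 2.00 and 2.28 CPM in NER replicates 1 and 2.

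Initiator caspase partners were higher in 5 of 6, or 4 of 6 with DESeq2 size factors or upper-quartile scaling, with Apaf1, the apoptosome platform gene, at 0.67 ± 0.37 (SE), and at 0.33 without LER+LIG replicate 3. Death receptor genes, ligands and adaptors were higher in 8 of 11, their median being 0.18, with Tnfsf10, the gene of the death ligand TRAIL, at 0.89 ± 0.45 (SE). Upper-quartile scaling left 6 of these 11 higher, and without LER+LIG replicate 2 there were 5, with a median of -0.01 and Tnfsf10 at 0.15. Antagonists of the inhibitor proteins were higher in 3 of 4, or 2 of 4 with upper-quartile scaling, with Xaf1 at 0.95 ± 0.35 (SE), or 0.54 without LER+LIG replicate 3, and other inhibitor genes in 1 of 3, Naip2 at 1.62 ± 0.77 (SE). None of these lists held a gene called by edgeR or by DESeq2.

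NF-kB subunit and feedback genes, whose factor acts upstream of Birc3 in human and mouse cells, were higher in LER+LIG than in LER in 9 of 14, by a median of 0.30, and in 7 of 14 by 0.04 without LER+LIG replicate 2. Nfkbia, the feedback inhibitor gene, stood at 94.8, 127.8 and 133.2 CPM under LIG, where LER had 67.2, 67.4 and 67.0 CPM and NER had 67.6, 68.4 and 101.7 CPM. Its LER libraries were the lowest of the 9 and close together, but NER replicates 1 and 2 were nearly level with them. Nfkbia was highest in LER+LIG replicate 3, while Nfkbiz and Cyld, at 103.5 and 43.8 CPM, were highest in replicate 2, as was Birc3. The part of NF-kB in the level of Birc3 was not tested. The log2 fold change of Nfkbia was 0.82 ± 0.22 (SE; adjusted p = 0.34 by edgeR). Nfkbiz had 1.26 ± 0.41, which became 0.60 without LER+LIG replicate 2, and Cyld had 0.68 ± 0.26 (SE). In LER against NER 14 of 14 were lower, by a median of -0.20, where 47.1% of all genes were higher and the median was -0.02. Of the 14, 0 were called by edgeR and by DESeq2, where these called 0% and 0.0141% of all genes. Under upper-quartile scaling 12 of the 14 were lower, and without NER replicate 3, 9 of the 14 were higher, by a median of 0.04.

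**Figure D4:**
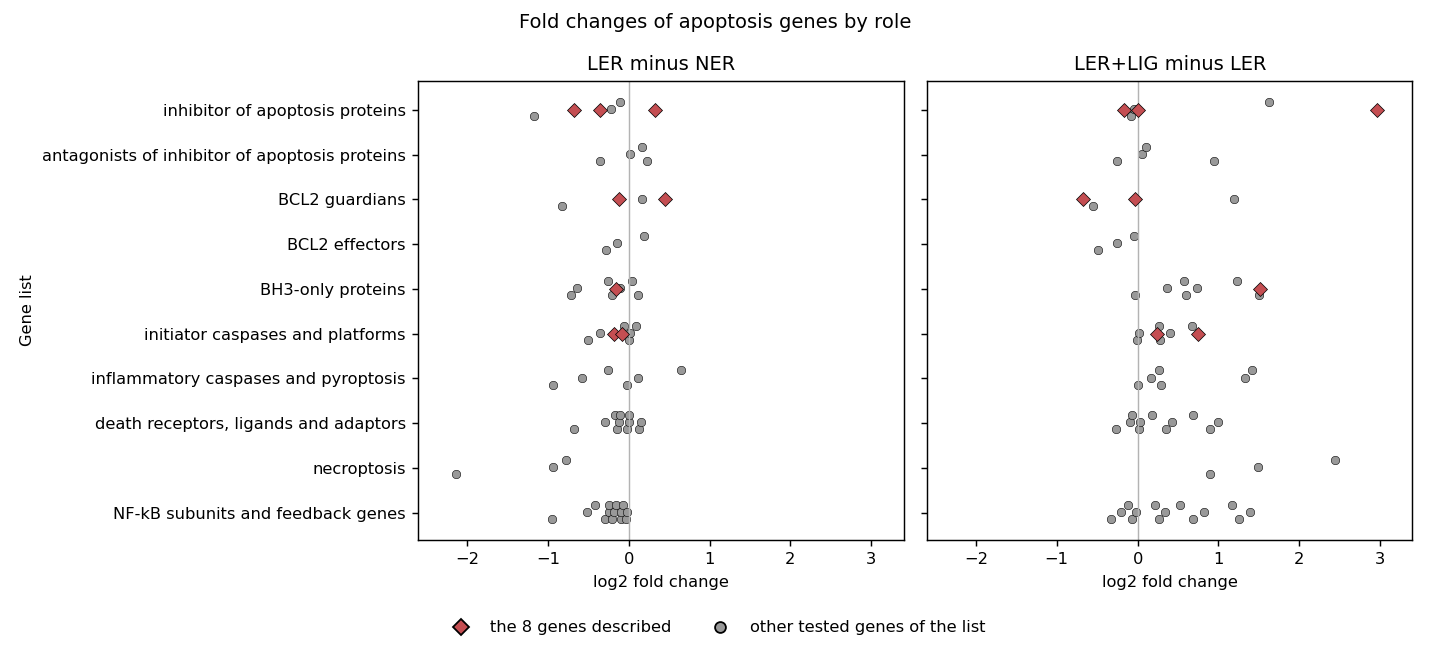
log2 fold change (horizontal axis) of the 8 genes (red diamonds) and of other tested apoptosis genes (grey points) on 10 of the lists, for LER against NER and LER+LIG against LER. For the latter, Birc3 at 2.96 lies furthest right of the inhibitor list, and Bcl2l1 at -0.68 furthest left of the guardian list.

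The authors' deposited table of comparisons, whose test no source used here names, calls Birc3 and Bcl2l11 up in LER+LIG against LER. In the authors' deposited table they have log2 fold changes of 2.93 and 1.49 with unadjusted p of 5.91e-04 and 0.01, and 7.96% of its genes are called in that comparison, with 4.59% of its genes called up. The other 6 members carry no call in the authors' deposited table, and none of the 8 does in LER against NER, where 1.69% of genes are called.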

How the data were processed

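Poly-A selected RNA was sequenced in 9 libraries, grouped by sample title. The authors deposited whole-number read counts per gene and FPKM, per the file headers, and a table of log2 fold changes and unadjusted p-values per the file headers. The sources used here name no aligner, counter, strand setting or genome build. FPKM equalled count per gene length and total count to a relative difference of 3.2e-14, which gave gene lengths. The deposited counts went into edgeR 4.0.16 (R 4.3.3): filterByExpr, TMM, glmQLFit with robust estimation over all 9 libraries and glmQLFTest, with calls at a Benjamini-Hochberg adjusted p under 0.05. A standard error is the log2 fold change over the root of F. The prior count for log2 CPM was 2. The DESeq2 1.42.0 Wald test, other scalings, no filter, 2-group fits, the replicate number as a block, each library left out and, chosen after seeing the data, an offset removing each library's gene length trend were alternatives. The fit was also run on simulated counts, and the share of set changes that it called is not reported here. No pair of libraries was a duplicate (chi-square per degree of freedom at least 17.9).

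Members, lists and tests were chosen with earlier results of these data known. Members were always named, with up to 3 genes per list by smallest p in LER+LIG against LER and in LER against NER, and the 4 genes of at least 2 CPM most correlated with the most variable member of each class. Naip6 on a list was matched as Naip2. Marker lists were given as summed CPM. Of 77 marker genes, 73 had a row. Planned ratios with Mcl1 were not made. Values per library are limited by counting error and by the number of libraries. The genes of 1 apoptosis list are not reported here by name.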

Additional observations from a re-analysis of the deposited data

How the results depend on the processing

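No alternative called a member by edgeR, and DESeq2 called Birc3 in LER+LIG against LER at 2.93. DESeq2 called 2 genes in LER against NER, 349 in LER+LIG against LER, 1 of them among the other apoptosis genes, and 23 in LER+LIG against NER, where edgeR called 0 in each. For LER+LIG against LER upper-quartile scaling, no filter and the removed length trend each called 1 gene, and leaving out 1 library 0 to 1. In that comparison Xiap turned to -0.02 with DESeq2 size factors and by DESeq2, -0.07 with upper-quartile scaling, -0.03 with no filter, -0.01 with only the 2 groups compared and with the length trend removed, and -0.11 with the replicate block. Whether replicate numbers pair the libraries was not settled. Same-numbered libraries had deviations correlated at -0.19 to 0.51 and different-numbered ones at -0.548 to 0.535. Between LER and LER+LIG the same-numbered pairs, at 0.074 to 0.19, lay above the different-numbered pairs, at -0.13 to 0.059. The block called 0 genes in each comparison, as the main fit did, so its calls cannot decide this. Bcl2l1 in LER+LIG against NER turned to 0.0049 with the length trend removed. With 2 CPM added, Birc3 to Birc2 averaged -2.73 in LER and Bcl2l1 to Bcl2 3.23 in NER.

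With 1 library left out, LER against NER ranged from -0.43 to 0.18 for Bcl2, -0.44 to 0.03 for Bcl2l11, -0.35 to 0.16 for Casp8 and -0.24 to 0.09 for Casp9, and 14 to 33 other apoptosis genes were higher. LER+LIG against LER ranged from -0.40 to 0.42 for Xiap and -0.90 to 0.44 for Bcl2. LER+LIG against NER ranged from -0.02 to 0.25 for Birc2, -0.75 to 0.09 for Xiap, -1.01 to 0.34 for Bcl2 and -0.01 to 0.31 for Casp9. The cause of these turns was not tested. In LER+LIG against LER, Birc3, Bcl2l11, Casp8 and Casp9 stayed higher and Bcl2l1 and Birc2 lower in these 9 fits. The SE between LER+LIG and LER was 0.50 for Xiap and 0.69 for Bcl2, larger than their fold changes.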
